A study of Mus musculus with 6 samples.

Results

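The run described here is a stretch of 10 circular RNAs (circRNAs) of the mouse ovary with consecutive ID numbers, novel_circ_043894 to novel_circ_043903, taken from the 57233 circRNAs listed in the study. They were chosen by ID number, with their lower abundance under hypobaric hypoxia already known. The difference between the groups is therefore given as a description, with no test of its own. The table used here names circRNAs by number, without a gene or a position in the genome, so no host gene, coordinate or sequence is given for any of them. Neighbouring here means neighbouring in number. For the same reason the tissue could not be checked against marker genes.

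A circRNA is a closed ring of RNA made by back-splicing, in which the splicing machinery joins a downstream exon boundary to an upstream one. Without free ends it resists RNase R, an exonuclease that digests linear RNA and that was used here to enrich circRNAs. One gene can give several circRNAs that differ in the exons joined, so the circRNAs of one gene can share sequence and differ in abundance. Hypobaric hypoxia is the low oxygen supply that comes with low air pressure, as at high altitude.

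Ovaries came from female C57BL/6J mice in 2 groups of 15, with 3 libraries per group. The mice were 8 weeks old by the study's design text and 6 to 8 weeks old by the sample descriptions. One group spent 15 days at the local pressure of Lanzhou (83.56 kPa, oxygen 17.8 kPa). The other spent 15 days in a chamber at 43.12 kPa (oxygen 8.1 kPa), apart from breaks of 0.5 h every 2 days for feeding. The chamber altitude is 6500 m by the titles and 5000 m by the descriptions. Both groups had first received levonorgestrel and ethinylestradiol by gavage to synchronize them, and doses (0.1 and 0.02 mg/kg) are stated only for the hypoxia group. Whether a library holds 1 mouse or a pool is not said, so p-values from these libraries may measure technical spread alone. Abundance is in RPM, circRNA reads scaled to the same fixed total in every library, so every value is a share of the circRNA fraction. Reads behind the values numbered between 151364 and 369055 per normal pressure library and between 487143 and 526621 per hypoxia library, so depth differed between the groups without overlap, and its part in the results was not tested beyond the equal-depth values given below.

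The run was carried by a few of its members. Of the 10 circRNAs, 5 were seen (RPM above 0) in all 6 libraries, 1 in 2 libraries, 3 in a single library and 1 in none. The 5 seen throughout were novel_circ_043894, novel_circ_043896, novel_circ_043898, novel_circ_043901 and novel_circ_043903. They were also the only members that passed the filter for the fit over all circRNAs, which asked for a value above 0 in at least 3 libraries. Each of them had a lower mean under hypobaric hypoxia, but the groups were apart for only 3 of them. These were novel_circ_043894, novel_circ_043896 and novel_circ_043903. Of all circRNAs in that fit, 4.85% had groups apart in this direction. The members were chosen on this contrast, so nothing is read from the count, and the description of the run as lowered does not cover all 10.

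The most abundant member, novel_circ_043903, had 1800, 2458 and 2227 RPM in normal pressure replicates 1, 2 and 3. In hypoxia replicates 1, 2 and 3 it had 1084, 1010 and 1145 RPM. The lowest normal pressure library lay well above the highest hypoxia library. Its mean was 2162 ± 334 RPM at normal pressure and 1080 ± 67.7 RPM under hypobaric hypoxia (SD, n = 3). The log2 difference was -0.99 with a standard error of 0.10, on the log2(RPM + 4.765) scale used throughout for log2 differences. Standard errors here and below come from the fit over all circRNAs (limma), which draws each variance toward the trend over all circRNAs. They are thus not the error from a circRNA's own libraries alone. Among all circRNAs of a library novel_circ_043903 ranked between 32 and 49 at normal pressure and between 99 and 120 under hypobaric hypoxia. These values rest on 372 to 822 reads per library, more than for any other member.

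The end member novel_circ_043894 had 170, 271 and 268 RPM in normal pressure replicates 1, 2 and 3, and 61.9, 66.5 and 98.5 RPM in the hypoxia libraries. The groups did not overlap, and hypoxia replicate 3 was the highest of its group. The level under hypobaric hypoxia was 32.0% of that at normal pressure, the lowest percentage among the 5 members seen throughout. Between 31 and 99 reads stood behind each value. It ranked between 601 and 982 at normal pressure and between 1635 and 2587 under hypobaric hypoxia.

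The abundance of novel_circ_043896 was 173, 225 and 176 RPM in normal pressure replicates 1, 2 and 3. In the hypoxia libraries it was 63.9, 64.6 and 65.7 RPM, a range of less than 2 RPM. The groups did not overlap. The mean was 191 ± 29.1 RPM at normal pressure and 64.7 ± 0.914 RPM under hypobaric hypoxia (SD, n = 3), and the log2 difference was -1.49 with a standard error of 0.29. With 32 to 34 reads in each hypoxia library, counting alone would give an SD of 11.3 RPM, so the observed spread there was 0.0807 times the counting error. The closeness of the 3 hypoxia values is thus finer than this depth resolves.

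The abundance of novel_circ_043901 was 79.4, 172 and 114 RPM at normal pressure and 35.9, 41.8 and 82.1 RPM under hypobaric hypoxia, each in the order of replicates 1, 2 and 3. Here the groups overlapped, since hypoxia replicate 3 lay above normal pressure replicate 1. The means were 122 ± 46.7 and 53.3 ± 25.1 RPM (SD, n = 3), a log2 difference of -1.14 with a standard error of 0.34. The spread was about as wide in both groups relative to counting, at 1.98 times the counting SD at normal pressure and 2.44 times under hypobaric hypoxia.

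The scarcest of the 5, novel_circ_043898, had 27.4, 13.2 and 70.5 RPM at normal pressure and 20.0, 13.3 and 20.5 RPM under hypobaric hypoxia. The hypoxia values lay inside the range of the normal pressure values. Normal pressure replicates 1, 2 and 3 held 10, 2 and 26 reads, and the size of the difference depended on which of them were included. The log2 difference was -0.65 with all libraries, -0.10 without normal pressure replicate 3 and -1.13 without normal pressure replicate 2, and -1.10 with precision weights on reads.

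The remaining members were near the limit of the table, in which the smallest value above 0 was taken as 2 reads. In normal pressure replicate 3, novel_circ_043897 and novel_circ_043899 each had 5.42 RPM and novel_circ_043900 had 10.8 RPM, and all 3 were listed at 0 in every other library. The opposite group held novel_circ_043902, at 5.70 and 8.21 RPM in hypoxia replicates 2 and 3 and at 0 elsewhere. No library had a value for novel_circ_043895. Anything under 2 reads would be listed at 0, and 2 reads are 13.2 RPM in the shallowest library (normal pressure replicate 2) and 3.80 to 5.48 RPM in the others. These members therefore show no direction.

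**Figure D1:**
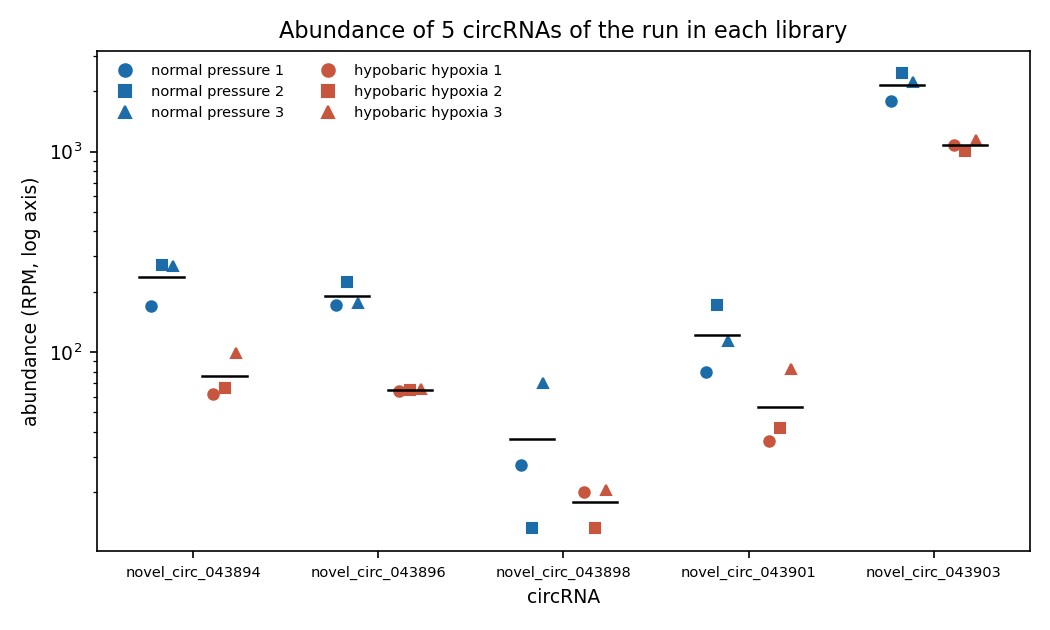
Abundance in RPM on a log axis of the 5 circRNAs of the run seen in all 6 libraries, with 1 point per library (shape: replicate) and a line at each group's mean. The groups are apart for novel_circ_043894, novel_circ_043896 and novel_circ_043903 and overlap for novel_circ_043898 and novel_circ_043901.

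Of the 5 members that passed the filter, 3 were called lower under hypobaric hypoxia in the fit over all circRNAs (limma, Benjamini-Hochberg adjusted p under 0.05), namely novel_circ_043894, novel_circ_043896 and novel_circ_043903. Of all 15737 circRNAs tested, 0.241% were called lower. The same 3 members had groups that did not overlap, a condition met in that direction by 4.85% of all circRNAs tested. Because the members were chosen on this contrast, nothing is read from these counts. The median log2 difference of the 5 was -1.14 (range -1.58 to -0.65), beside 0.18 over all circRNAs tested and -0.07 over the 6057 seen in all 6 libraries. Without normal pressure replicate 3, novel_circ_043903 was the only member called, at a limma adjusted p of 0.0454, just under the threshold. The log2 differences of novel_circ_043894 and novel_circ_043896 were then -1.48 and -1.54, against -1.58 and -1.49 with all libraries. The call of novel_circ_043896 was also lost without normal pressure replicate 1, at a log2 difference of -1.55. Calls over all circRNAs went from 64 to 4 and 6 without these libraries. With plain limma variances (no intensity trend, not robust) none of the 5 was called, while 4 of them had an unadjusted p under 0.05.

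The order of levels within the run was described in each group. At normal pressure the circRNA novel_circ_043903 stood far above the rest, at 2162 RPM. It was followed by novel_circ_043894 at 236 ± 57.6 RPM and novel_circ_043896 at 191 ± 29.1 RPM (SD, n = 3), whose libraries overlapped. Then came novel_circ_043901 at 122 RPM, whose highest library reached into the range of novel_circ_043894, and last novel_circ_043898 at 37.0 ± 29.8 RPM (SD, n = 3). Under hypobaric hypoxia the order was the same, with 75.6 ± 20.0 RPM for novel_circ_043894 and 17.9 ± 4.03 RPM for novel_circ_043898 (SD, n = 3). There the ranges of novel_circ_043894, novel_circ_043896 and novel_circ_043901 overlapped. Within a library, novel_circ_043894 was above novel_circ_043901 in all 6 libraries, while novel_circ_043896 lay above novel_circ_043894 in some libraries and below it in others. These levels compare numbers of reads at each back-splice between circRNAs whose lengths are not known here.

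Summed over its 10 members, the run held 2249, 3138 and 2878 RPM in normal pressure replicates 1, 2 and 3 and 1266, 1202 and 1421 RPM in the hypoxia libraries. All normal pressure sums lay above all hypoxia sums. The mean was 2755 ± 457 RPM at normal pressure and 1296 ± 112 RPM under hypobaric hypoxia (SD, n = 3), so the hypoxia level was 47.0% of the normal pressure level. As a share of all circRNA reads this was 0.275% ± 0.0457 and 0.130% ± 0.0112 (SD, n = 3). The log2 ratio of the means was -1.09. After random removal of reads until every library was as shallow as the shallowest, it was -1.08. Without novel_circ_043903 the sum was 593 ± 126 RPM at normal pressure and 216 ± 51.3 RPM under hypobaric hypoxia (SD, n = 3), a log2 ratio of -1.46.

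The makeup of the run was also described, again without a test because it uses the same contrast. Of the reads of the run, novel_circ_043903 took 80.0% (95% exact binomial interval 77.1 to 82.7), 78.3% (74.3 to 81.9) and 77.4% (74.8 to 79.9) in normal pressure replicates 1, 2 and 3. In hypoxia replicates 1, 2 and 3 it took 85.6% (82.7 to 88.3), 84.0% (81.0 to 86.8) and 80.6% (77.5 to 83.5). The lowest hypoxia share, that of replicate 3, stood 0.612 percentage points above the highest normal pressure share, and their intervals overlapped widely. The mean share was 78.6% ± 1.33 at normal pressure and 83.4% ± 2.56 under hypobaric hypoxia (SD, n = 3). These intervals cover counting error only, and without molecular identifiers the reads cannot be taken as separate molecules.

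Lower shares under hypobaric hypoxia were seen for 2 members. The share of novel_circ_043894 was 8.50% ± 0.892 at normal pressure and 5.79% ± 1.05 under hypobaric hypoxia, and that of novel_circ_043896 was 6.98% ± 0.791 and 5.01% ± 0.374 (SD, n = 3). Neither overlapped between the groups, but the counting intervals of the nearest libraries, of the same kind as above, overlapped widely. For novel_circ_043894 the nearest shares were 7.55% (5.84 to 9.58) in normal pressure replicate 1 and 6.94% (5.16 to 9.09) in hypoxia replicate 3. For novel_circ_043896 they were 6.12% (4.76 to 7.73) in normal pressure replicate 3 and 5.37% (3.75 to 7.43) in hypoxia replicate 2. The shares of novel_circ_043901, at 4.32% ± 1.02 and 4.03% ± 1.55, and of novel_circ_043898, at 1.36% ± 1.02 and 1.38% ± 0.243, overlapped (SD, n = 3).

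A ratio between 2 circRNAs of one library does not depend on how libraries are scaled to each other. Per 100 RPM of novel_circ_043903, novel_circ_043894 had 9.44, 11.02 and 12.0 RPM in normal pressure replicates 1, 2 and 3 and 5.71, 6.58 and 8.60 RPM in the hypoxia libraries. The value for novel_circ_043896 was 9.59, 9.14 and 7.91 RPM at normal pressure and 5.89, 6.39 and 5.73 RPM under hypobaric hypoxia. Both ratios were lower in each hypoxia library than in each normal pressure library. They use the same reads as the shares above and are not a further result. The nearest libraries rest on 62 and 48 reads of novel_circ_043894 (9.44 and 8.60 RPM) and 65 and 34 reads of novel_circ_043896 (7.91 and 6.39 RPM). For novel_circ_043901 the mean ratio was 5.50 ± 1.33 RPM at normal pressure and 4.87 ± 2.03 RPM under hypobaric hypoxia, and for novel_circ_043898 it was 1.74 ± 1.33 and 1.65 ± 0.290 RPM (SD, n = 3), both within the spread of the libraries.

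**Figure D2:**
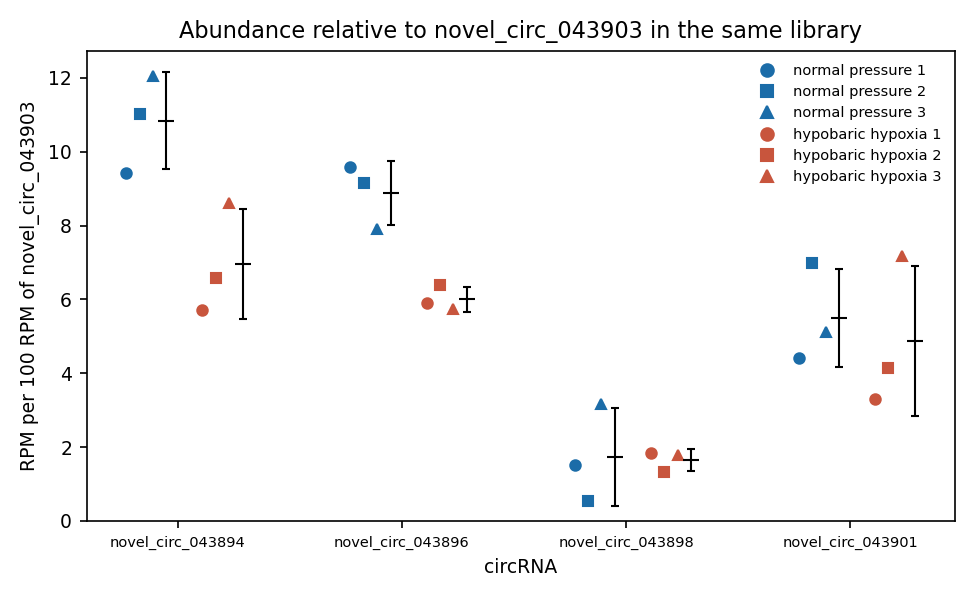
RPM of 4 circRNAs of the run per 100 RPM of novel_circ_043903 in the same library, with 1 point per library and the mean ± SD of each group (n = 3) beside the points. The ratios of novel_circ_043894 and novel_circ_043896 lie lower in all hypoxia libraries than in all normal pressure libraries, and those of novel_circ_043898 and novel_circ_043901 overlap.

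Within the groups, the deviations of 4 of the 5 members were positively correlated. This was measured on each library's deviation from its group mean on the log2 scale, which leaves out the difference between the groups. At normal pressure, novel_circ_043894, novel_circ_043896, novel_circ_043901 and novel_circ_043903 were each lowest in replicate 1 and highest in replicate 2. Under hypobaric hypoxia novel_circ_043894, novel_circ_043901 and novel_circ_043903 were each highest in replicate 3, while the values of novel_circ_043896 differed by less than counting error. The correlation of these deviations over the 6 libraries (4 degrees of freedom) was 0.92 between novel_circ_043894 and novel_circ_043901, 0.84 between novel_circ_043894 and novel_circ_043903, 0.80 between novel_circ_043901 and novel_circ_043903, and 0.75 between novel_circ_043896 and novel_circ_043903. It was 0.68 between novel_circ_043896 and novel_circ_043901 and 0.48 between novel_circ_043894 and novel_circ_043896. Without normal pressure replicate 2, an alternative chosen after seeing the data, these 6 values lay between 0.67 and 0.98 over 5 libraries. The deviations of normal pressure replicates 1 and 3 are then equal and opposite by construction. For novel_circ_043896 those libraries held 173 and 176 RPM, beside a counting SD of 28.5 RPM. Nothing is therefore read from its values of 0.98, 0.95 and 0.75. Among novel_circ_043894, novel_circ_043901 and novel_circ_043903 the values were 0.94, 0.87 and 0.67.

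For the fifth member, novel_circ_043898, the values turned on that library. With all libraries its correlation was -0.73 with novel_circ_043896 and between -0.21 and 0.14 with the other 3. Without normal pressure replicate 2, where it had 2 reads, the correlations with the 4 members were between 0.51 and 0.98. The value with novel_circ_043896 (0.62) has the limit given above. Over the whole table, pairs of circRNAs with ID numbers 1 to 9 apart, both seen in all libraries and with a mean of at least 30 RPM, had a median correlation of 0.06 (4275 pairs), and 24.0% of these pairs exceeded 0.5. The median was 0.07 and the percentage 28.5% without normal pressure replicate 2. Points in one library share its depth and its scaling, so these values are descriptions.

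Lower means under hypobaric hypoxia were not limited to the numbers of the run. Just before it, novel_circ_043893 had 68.5, 192 and 84.0 RPM in normal pressure replicates 1, 2 and 3 and 45.9, 53.2 and 61.6 RPM in the hypoxia libraries, with no overlap. Just after it, novel_circ_043904 had 87.7, 211 and 111 RPM at normal pressure and 63.9, 64.6 and 107 RPM under hypobaric hypoxia, where hypoxia replicate 3 overlapped with normal pressure replicate 1. Their log2 differences were -0.90 (standard error 0.35) and -0.71 (standard error 0.31), and neither was called. Without normal pressure replicate 2, the shallowest library and the highest for both, they were -0.48 and -0.35.

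For both circRNAs the mean ratio to the most abundant member of the run differed between the 2 groups by less than the spread of the libraries. Per 100 RPM of novel_circ_043903, novel_circ_043893 had 5.12 ± 2.31 RPM at normal pressure and 4.96 ± 0.629 RPM under hypobaric hypoxia, and novel_circ_043904 had 6.15 ± 2.12 and 7.20 ± 1.85 RPM (SD, n = 3). This depended on normal pressure replicate 2, the highest of its group for both (7.80 and 8.60 RPM). In normal pressure replicates 1 and 3 novel_circ_043893 had 3.81 and 3.77 RPM, below its 4.24, 5.26 and 5.38 RPM in the hypoxia libraries. There novel_circ_043904 had 4.87 and 4.99 RPM, below its hypoxia values of 5.89, 6.39 and 9.32 RPM. The deviations of both circRNAs within groups had correlations of 0.81 and 0.86 with those of novel_circ_043903. Their correlation with each other was 0.93 (0.68, 0.71 and 0.88 in the same order without normal pressure replicate 2). With these 2 circRNAs added, the log2 ratio of the summed means was -1.07.

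Over 10 IDs on each side, these 2 included, the summed RPM was also higher in each normal pressure library than in each hypoxia library. After the run this rested on novel_circ_043904, without which the sums of the groups overlapped. Of the 10 IDs before the run, 3 passed the filter and none was called, and the summed RPM of all 10 was 331 ± 109 at normal pressure and 204 ± 11.3 under hypobaric hypoxia (SD, n = 3). Of the 10 IDs after it, 6 passed and none was called, with sums of 305 ± 52.4 and 207 ± 8.36 RPM (SD, n = 3). Mean RPM of those that passed was lower under hypobaric hypoxia for 2 of 3 before and 5 of 6 after the run. A scarce ID after the run with a lower mean RPM had a log2 difference of 0.00944. No share over all circRNAs stands beside these counts, so nothing is read from them. After the run, novel_circ_043906, singled out after its values were seen, had 32.9, 26.4 and 16.3 RPM in normal pressure replicates 1, 2 and 3 (12, 4 and 6 reads). It was listed at 0 in every hypoxia library. The abundance of novel_circ_043912, also singled out after its values were seen, was higher in hypoxia, at 8.02 ± 7.04 RPM at normal pressure and 19.1 ± 6.06 RPM under hypobaric hypoxia (SD, n = 3), without overlap between the groups, on 0 to 4 reads per normal pressure library.

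**Figure D3:**
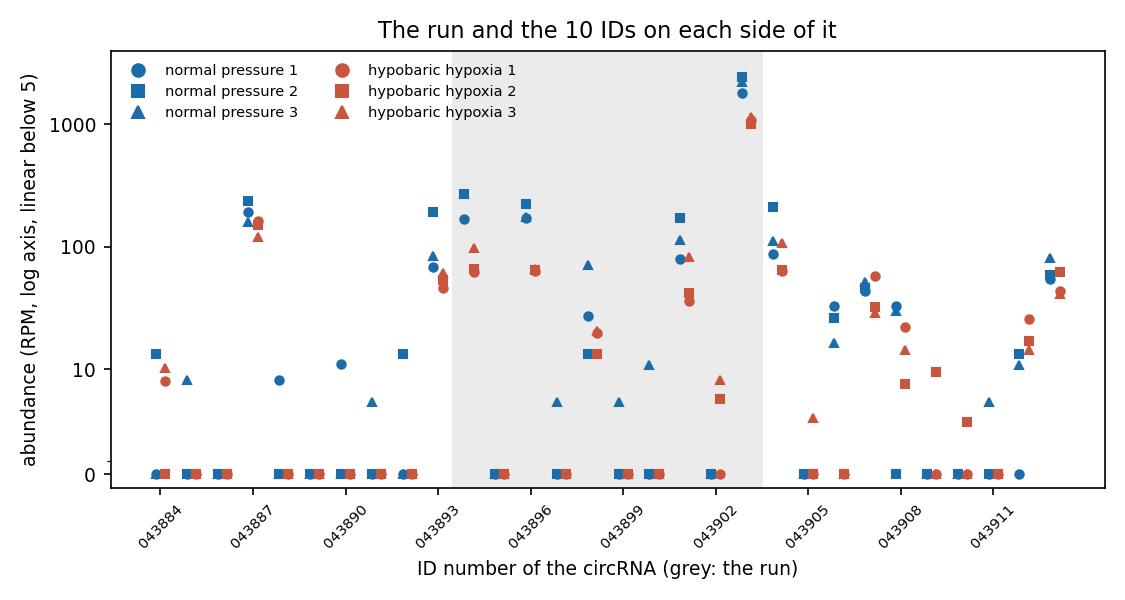
Abundance in RPM (log axis, linear below 5 RPM) of the run, shaded, and of the 10 IDs on each side of it, with 1 point per library. The run holds the most abundant circRNA of the stretch, novel_circ_043903, and the IDs next to it on both sides, novel_circ_043893 and novel_circ_043904, also have higher means at normal pressure.

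Whether ID numbers carry information was described over the whole table. Among the 4481 circRNAs seen in all libraries with a mean of at least 30 RPM, the log2 difference between the groups correlated across pairs 1 number apart with r = 0.23 (657 pairs). The value was 0.27 for pairs 2 apart, 0.21 for pairs 3 to 5 apart, 0.14 for pairs 6 to 10 apart and 0.09 for pairs 11 to 20 apart. At 21 to 50 and 51 to 100 numbers apart it was -0.00494 and -0.00599. CircRNAs up to 20 apart in number thus had log2 differences that were weakly alike, and those farther apart had correlations near 0. Without normal pressure replicate 2 the values at 1, 2 and 3 to 5 apart were 0.17, 0.29 and 0.19. The correlation of their mean levels was 0.06 at 1 number apart. These are correlations across circRNAs, which are not independent replicates, and the run is among the pairs.

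**Figure D4:**
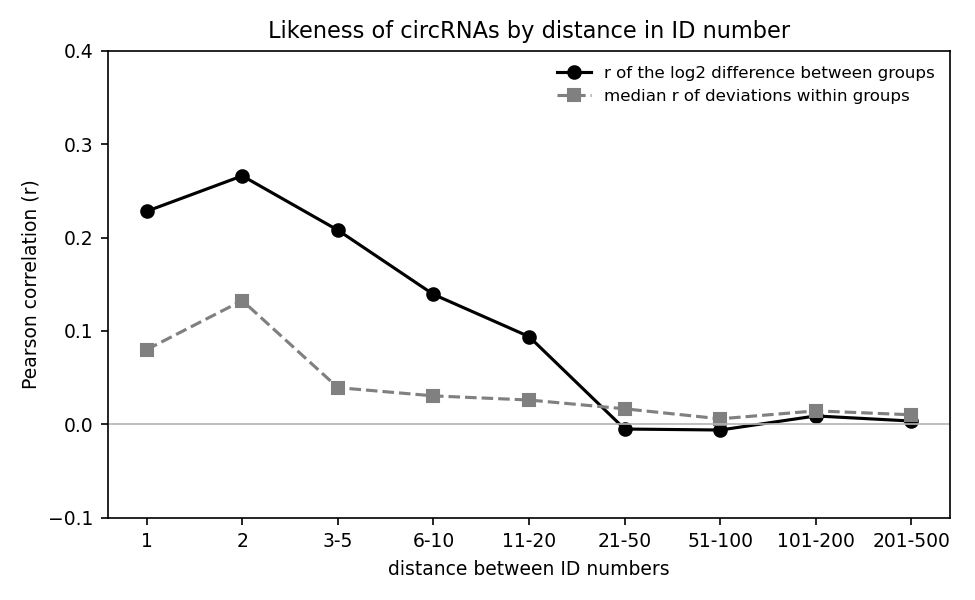
Pearson correlation between circRNAs by the distance between their ID numbers, over the 4481 circRNAs seen in all 6 libraries with a mean of at least 30 RPM. Circles show the correlation across pairs of the log2 difference between the groups, which goes from 0.23 at distance 1 to -0.00494 at 21 to 50, and squares show the median correlation of the deviations within groups, which is 0.08 at distance 1.

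The circRNAs most like the summed run over the 6 libraries were looked for among the 6052 others seen in all of them, by the root mean square difference between log2 profiles centred on their means. The closest was novel_circ_012488, with a difference of 0.13, at 31.4 ± 7.62 RPM at normal pressure and 11.9 ± 1.70 RPM under hypobaric hypoxia (SD, n = 3). The next were novel_circ_032688 (0.14), at 57.9 ± 5.31 and 25.2 ± 5.42 RPM, and novel_circ_032900 (0.15), at 244 ± 58.5 and 113 ± 16.7 RPM (SD, n = 3). None of these 3 is near the run in number, and novel_circ_012488 rested on 5 to 11 reads per library. Against the same profile, novel_circ_043903 differed by 0.05, as the main part of the sum, and the other 4 members seen throughout by 0.24 to 0.68. The neighbours novel_circ_043893 and novel_circ_043904 differed by 0.35 each and ranked 229 and 243 in likeness.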

How the data were processed

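CircRNA libraries of mouse ovary, 3 per group and all of batch 1 per the labels, were sequenced after ribosomal RNA removal and RNase R digestion, per the labels' protocols. The deposited values are RPM, which the authors scaled to about the same total in each library. BWA, Bowtie2 and the build GRCm38 were used per the submitters' processing notes. Which program called the circRNAs, and with which filters, is not given in the sources used here. In each library 100% of the values above 0 were whole multiples of 1 step (tolerance 0.05 reads) when the smallest was taken as 2 reads. The reads so obtained were used for depth, counting errors and thinning (20 draws to 151364 reads). Replicates differed by 2.89 to 4.27 in chi-square per degree of freedom, which is more than counting error alone. This does not tell separate preparations of 1 pool from libraries of separate mice.

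Tests were run on log2(RPM + 4.765), where the pseudocount is the middle value of the 6 libraries' smallest nonzero RPM, for circRNAs above 0 in at least 3 libraries. limma 3.58.1 (R 4.3.3) was used with an intensity trend, robust variances and Benjamini-Hochberg adjustment over all 15737. The fit was also run on simulated data with larger changes than those of the members, which does not bear on their calls. Python 3.11.15, numpy 2.4.6, pandas 2.3.3 and scipy 1.17.1 were used for the rest. The members and lists were chosen with earlier results of these data known. The circRNAs named are all members, the nearest ID on each side seen in all libraries, and the 3 most alike in profile, with 2 more IDs after the run (novel_circ_043906 and novel_circ_043912) singled out after their values were seen. Alternatives changed the pseudocount, filter, scaling, variance model, replicate block and libraries. The fit with precision weights on reads (voom), the run with 1 ID more on each side and the correlations without the shallowest library were added after seeing the data. Sequences and gene names were not used here.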

Additional observations from a re-analysis of the deposited data

How the results depend on the processing

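The 3 members called lower became 0 with plain limma variances (no intensity trend, not robust), where 4 had an unadjusted p under 0.05 (1408 over all circRNAs, none called), and 1 to 3 with 1 library left out. The cause was not tested. In the other alternatives 3 were called, including the fit with precision weights on reads, added after seeing the data. With the replicate number as a block, 3 members were again called lower. Same-numbered libraries of the 2 groups did not deviate together (correlations -0.00317, -0.00456 and 0.0114), and not every library correlated best with its own number. The log2 ratio of the summed run was -1.46 without novel_circ_043903, which by construction leaves out the member of highest abundance, and -1.21 to -0.98 in the other alternatives. The share of novel_circ_043903 was 4.86 percentage points higher in hypobaric hypoxia, and 3.58 to 6.27 in the alternatives. No log2 difference of a member seen throughout changed sign. The planned edgeR test on reads was not run, because the deposited values are RPM with no value of 1 read. Depth limits most the 5 members listed at 0 in most libraries.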
